A study of Mus musculus with 2 samples.

Results

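The Sntb1 Hmga2 nuclei are a small set of Slc17a7-positive nuclei of the mouse entorhinal cortex that were chosen by high transcript counts of the 3 genes Sntb1, Kcnh8 and Hmga2. They numbered 102 of 12918 nuclei, 48 of them from vehicle mice and 54 from OLE mice. Both libraries came from male APP/PS1 mice, which carry amyloid transgenes and build up plaques. The mice drank alkaline water with the N-acyl amino acid C18:1-Leu (N-oleoyl-leucine, OLE) at 25 mg/kg/day or with its DMSO vehicle from 15 months of age until 18 months. Nuclei were isolated from frozen entorhinal cortex, and each library pooled 5 mice, so single animals cannot be told apart. No wild-type mice were part of this comparison, and every nucleus, vehicle included, carried the APP/PS1 background.

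The entorhinal cortex links the neocortex with the hippocampus, and its glutamatergic neurons differ by layer and by the target of their axons. Near-projecting neurons are deep-layer glutamatergic cells whose axons stay close to the cell body, and Tshz2 and Vwc2l are among the genes used to recognise them. Sntb1 encodes a syntrophin, an adaptor that ties channels and signaling proteins to the dystrophin complex. Kcnh8 encodes a voltage-gated potassium channel of the Elk type, and Hmga2 an AT-hook chromatin protein best known from embryonic and proliferating cells.

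A nucleus entered the choice when it held at least 6000 UMIs (unique molecular identifiers, which count captured transcripts), at least 2 UMIs of Slc17a7, the vesicular glutamate transporter of most cortical glutamatergic neurons, and at most 3 UMIs of the GABA-synthesis genes Gad1 and Gad2 together. This gate held 3844 nuclei, 1741 of vehicle and 2103 of OLE. Each gene's log1p(counts per 10000) was turned into a z-score over all gated nuclei, and nuclei with a mean z of at least 1.5 over the 3 genes were taken. The score has no gap at this limit: the 3 nuclei just inside had scores of 1.51, 1.52 and 1.53, and the 3 just outside 1.48, 1.47 and 1.46. Between 1 and 1.5 lay 59 nuclei, between 1.5 and 2 lay 24, between 2 and 2.5 lay 14, and between 2.5 and 3 lay 6. A further 24 nuclei scored between 3 and 4, and 34 scored 4 or more. The set is therefore a range of a score with no clear lower edge.

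Sntb1 Hmga2 nuclei made up 2.76% of the gated nuclei in vehicle (95% Clopper-Pearson interval 2.04 to 3.64) and 2.57% in OLE (1.93 to 3.34). The share in OLE differed from that in vehicle by -0.189 percentage points (-1.27 to 0.863), so no difference was detectable at this number of nuclei. Of all nuclei they were 0.712% in vehicle and 0.875% in OLE. With 1 library for each treatment there is no replicate check anywhere in these data, and all intervals cover counting error only. The 2 libraries shared 14 barcodes, and none of the 102 nuclei carried such a barcode.

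The median nucleus of the set held 18056 UMIs in vehicle (from 6002 to 71346) and 15078 in OLE (from 6711 to 51705), against 22301 and 18053 in the other gated nuclei. Summed over the set, this gave 925867 UMIs in vehicle and 913404 in OLE. By Scrublet, which scores how much a nucleus resembles a sum of profiles of different cells, 7 nuclei of the vehicle set (14.6%) and 3 of the OLE set (5.56%) were in the top 5% of their library, against 5.97% and 8.15% of the other gated nuclei.

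The values of the 3 chosen genes describe the choice and are no finding. Levels are given throughout as counts per 1000000 UMIs summed over a set of nuclei (CPM), without division by gene length. Sntb1 (chr15:55636388-55906949, GRCm38, minus strand) stood at 453 CPM in vehicle (95% Poisson interval 410 to 498) and 523 in OLE (477 to 572), against 10.5 and 13.6 in the other gated nuclei. Kcnh8 (chr17:52602709-52979194, plus strand) stood at 289 and 321, against 6.84 and 8.42. Hmga2 (chr10:120361275-120476469, minus strand) had fewer UMIs, at 82.1 CPM in vehicle (76 UMIs) and 59.1 in OLE (54 UMIs), against 1 UMI in all other gated vehicle nuclei and 7 in the other gated OLE nuclei. These 3 loci lie on different chromosomes and are all protein-coding, and intronic reads were counted along the whole gene.

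Because Hmga2 is rare in gated nuclei, the rule draws most nuclei that hold it into the set. Of the 138 Hmga2 UMIs in gated nuclei, 130 were in the set, and 32 of the 40 gated nuclei with any Hmga2 UMI were members. Over all nuclei, ungated ones included, there were 248 Hmga2 UMIs. Sntb1 and Kcnh8 were less restricted, with a UMI in 675 and 598 of the 3844 gated nuclei, 151 of which held both. When the score was built from 2 of the genes alone, the gene left out of it was higher in the nuclei so chosen. This cannot check the set independently, because the members were chosen with earlier results of these data known. Many of the nuclei were also the same, from 37 of 43 in vehicle without Sntb1 to 49 of 90 in OLE without Hmga2. The values describe the choice and are no finding. Sntb1, when left out, was higher by 4.81 on the log2 scale in vehicle and 4.66 in OLE, Kcnh8 by 4.72 and 4.27, and Hmga2 by 6.37 and 5.36.

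**Figure D1:**
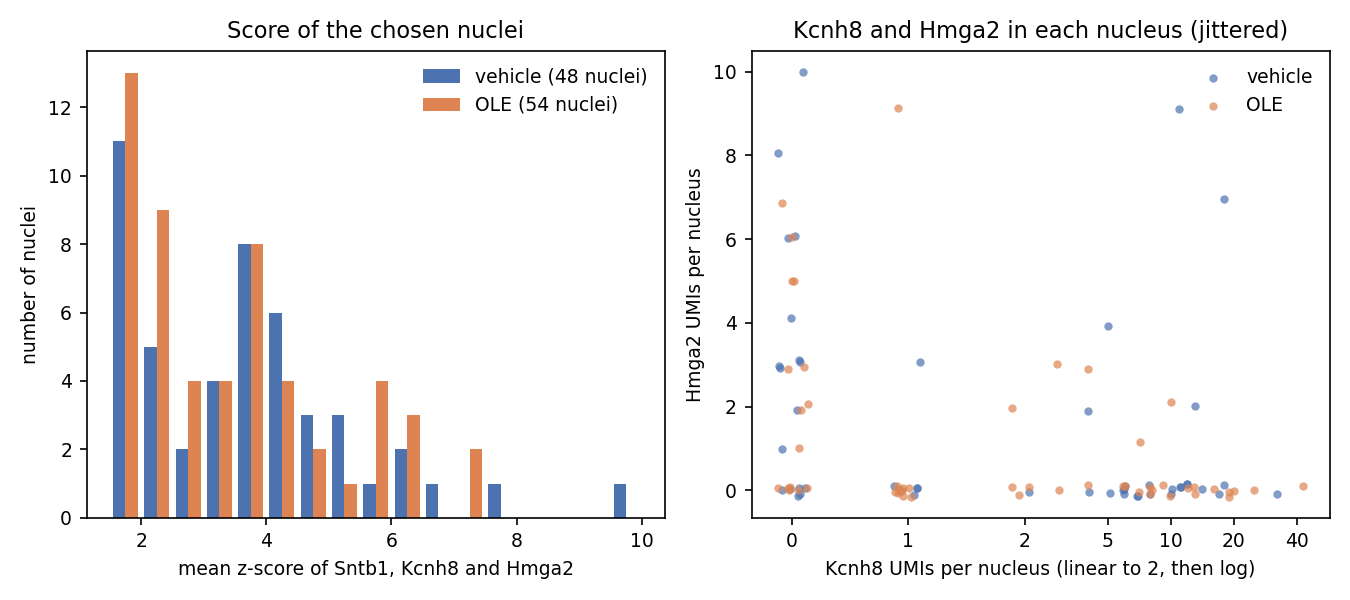
Left, number of Sntb1 Hmga2 nuclei by mean z-score of Sntb1, Kcnh8 and Hmga2, in vehicle (48 nuclei) and OLE (54 nuclei). Right, Hmga2 UMIs against Kcnh8 UMIs in each nucleus, with jitter and with a Kcnh8 axis that is linear to 2 UMIs and logarithmic above. Scores thin out from the limit of 1.5 and rise in number again between 3 and 4, and most nuclei with Hmga2 lie at 0 or 1 Kcnh8 UMIs, with 10 nuclei holding Hmga2 and at least 2 UMIs of Kcnh8.

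The set carried a broad profile beyond these genes. The genes named were ranked by the smaller of their ratios in the 2 libraries, so likeness of the libraries follows in part from that choice. The gene most raised outside the rule was Kcnip1, a calcium-binding partner of A-type (Kv4) potassium channels, followed by the cytoskeletal and signaling genes Crybg1, Lcp1, Stard5 and Skap1. Further down stood the kainate receptor subunit Grik1, the orexin receptor Hcrtr2 and the adhesion molecule Cntn6. Reln, which encodes the extracellular protein reelin and marks superficial entorhinal neurons, led the genes that were low. Of 3483 genes with at least 100 UMIs in the set, or with that many predicted from their level in the other gated nuclei, 137 (3.93%) were at least 2-fold higher in both libraries and 141 (4.05%) at least 2-fold lower. Since the nuclei were chosen by their transcripts, these ratios to the other gated nuclei are a description and were not tested.

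Kcnip1 (chr11:33629339-33993152, minus strand) stood at 518 CPM in vehicle (473 to 567) and 562 in OLE (514 to 612), against 16.3 and 17.1 in the other gated nuclei, which is a log2 difference of 4.99 (4.82 to 5.17) and 5.04 (4.87 to 5.20). It was found in 42 of 48 vehicle nuclei, with a median of 4.99 per 10000 UMIs and a highest value of 13.1, and in 41 of 54 OLE nuclei, with a median of 5.21 and a highest value of 22.9. The transcript was thus spread over most of the set rather than held by a few nuclei, and 19 nuclei had none. After every gated nucleus was thinned to 6000 UMIs, Kcnip1 was seen in 77.1% of vehicle and 74.1% of OLE members, against 7.09% and 9.13% of the other gated nuclei. The last 2 shares were near the 7.51% of microglia (median 2424 UMIs, not thinned), cells that should lack the transcript. Without thinning, the shares were 87.5% and 75.9% in the set and 13.9% and 16.3% in the other gated nuclei.

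Other genes of signaling and the cytoskeleton were also set apart from the other gated nuclei. Crybg1 stood at 69.1 CPM in vehicle and 73.4 in OLE, against 2.82 and 2.38. Lcp1, an actin-bundling protein better known from leukocytes, stood at 105 and 92.0 against 5.37 and 5.99. Stard5, a lipid-transfer protein, stood at 132 and 205 against 9.75 and 11.4. Lcp1 was seen in 30.5% of microglial nuclei. The summed level of the 7 microglial markers was 68.0 and 82.1 CPM in the set and 58.1 and 75.5 in the other gated nuclei. Whether microglial transcripts add to the Lcp1 level of the set was not tested. The adaptor Skap1 was higher by 4.05 and 3.69 on the log2 scale, the cyclic-AMP-regulated exchange factor Rapgef3 by 3.15 and 3.19, the receptor kinase Alk by 3.16 and 3.75, and the guidance cue Sema5b by 3.46 and 3.77. The remaining genes of this kind were fainter in difference, from the laminin-binding integrin Itga6 (3.15 and 2.94), the adhesion receptor Adgrd1 (2.87 and 3.29) and the glycosyltransferase B4galnt3 (3.09 and 3.13) to the transcription factor Ikzf2 (2.40 and 2.37), the RNA-binding protein Rbms3 (2.58 and 2.40) and the extracellular protein Spon1 (2.58 and 2.65).

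Receptors and their partners formed another group. Hcrtr2 stood at 87.5 CPM in vehicle and 88.7 in OLE, against 10.7 and 11.1 in the other gated nuclei, and was found in 26 and 27 nuclei of the set. Grik1 stood at 976 and 784, against 106 and 94.5. In a list of ionotropic glutamate receptor subunits, 3 of 15 measured genes were at least 2-fold higher in both libraries (Grik1, Grik3 and Grin3a) and none was lower. Over all 3483 measured genes, 3.93% were that much higher and 4.05% that much lower, so 1 gene in a list is not read as a result. Neto2, an auxiliary subunit of kainate receptors, was higher by 2.55 and 2.42 on the log2 scale, Grin3a by 2.60 and 2.46, and Grik3 by 1.30 and 1.42. Among GABA receptor subunits, 1 of 12 was higher (Gabrg3, 1.87 and 1.77) and 2 were lower, Gabra2 by -2.25 and -2.44. The serotonin receptor Htr2c was the single raised gene of 5 measured amine receptors (1.74 and 1.54).

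Of potassium channel genes, Kcnip1 was the one higher member of 7 measured Kv4 channels and partners, and Dpp10, another Kv4 partner, was the one lower member (-2.20 and -1.88). Kcnh8, which the rule used, was the one higher member of 5 KCNH channels. Kcna6 was the one higher among 19 other potassium channel genes (1.54 and 1.49), and 1 of the 19 was lower. Such single genes stand beside 3.93% higher and 4.05% lower over all measured genes and are not read as a result. In the dystrophin complex list, 2 of 13 genes were higher, Sntb1 itself and the sarcoglycan Sgcd, and 2 were lower, the dystrophin relative Utrn and the other syntrophin Sntb2. Sgcd stood at 4335 CPM in vehicle and 4011 in OLE, against 777 and 706.

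Adhesion and guidance genes were divided. Cntn6 stood at 1659 CPM in vehicle and 1262 in OLE, against 176 and 159, and its relative Cntn4 was higher by 1.47 and 1.56 on the log2 scale, but Cntn5 was lower by -2.42 and -2.65. Of all measured genes, 3.93% were at least 2-fold higher in both libraries and 4.05% at least 2-fold lower. Of 24 synaptic adhesion genes, 5 were higher and 3 lower. Of 26 axon guidance genes, 3 were higher, namely the netrin receptor Dcc (1.89 and 1.97), Nrp2 and Slit1, and 9 were lower, among them Unc5d, Epha4 and Slit3. Of 12 classical cadherins, 1 was higher (Cdh11, 1.30 and 1.27) and 5 were lower, Cdh7 the most.

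The lowest genes of the set were neuronal as well. Reln stood at 10.8 CPM in vehicle (10 UMIs) and 8.76 in OLE (8 UMIs), against 139 and 108, a log2 difference of -3.68 (-4.75 to -2.80) and -3.62 (-4.84 to -2.64). With Sntb1 left out of the rule the smaller Reln difference was -0.26, and with Hmga2 left out it was -0.81. Low Reln was not particular to the set. Nuclei chosen in the same way by Htr2c and Dpp4 had 25.6 and 20.9 CPM, and those by Stac and Vat1l 369 and 244. Against the Htr2c Dpp4 nuclei the set differed by -1.24 (-2.39 to -0.24) and -1.26 (-2.56 to -0.14). The neurotrophin receptor Ntrk3 was lower by -2.48 and -2.45, the sorting receptor Sorcs3 by -2.46 in both, and Fam19a1, which encodes a secreted protein, by -3.09 and -4.01. Fstl4, Col19a1, Syt17, Slc24a4 and Ntng2 were lower by at least 2-fold in both libraries too.

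**Figure D2:**
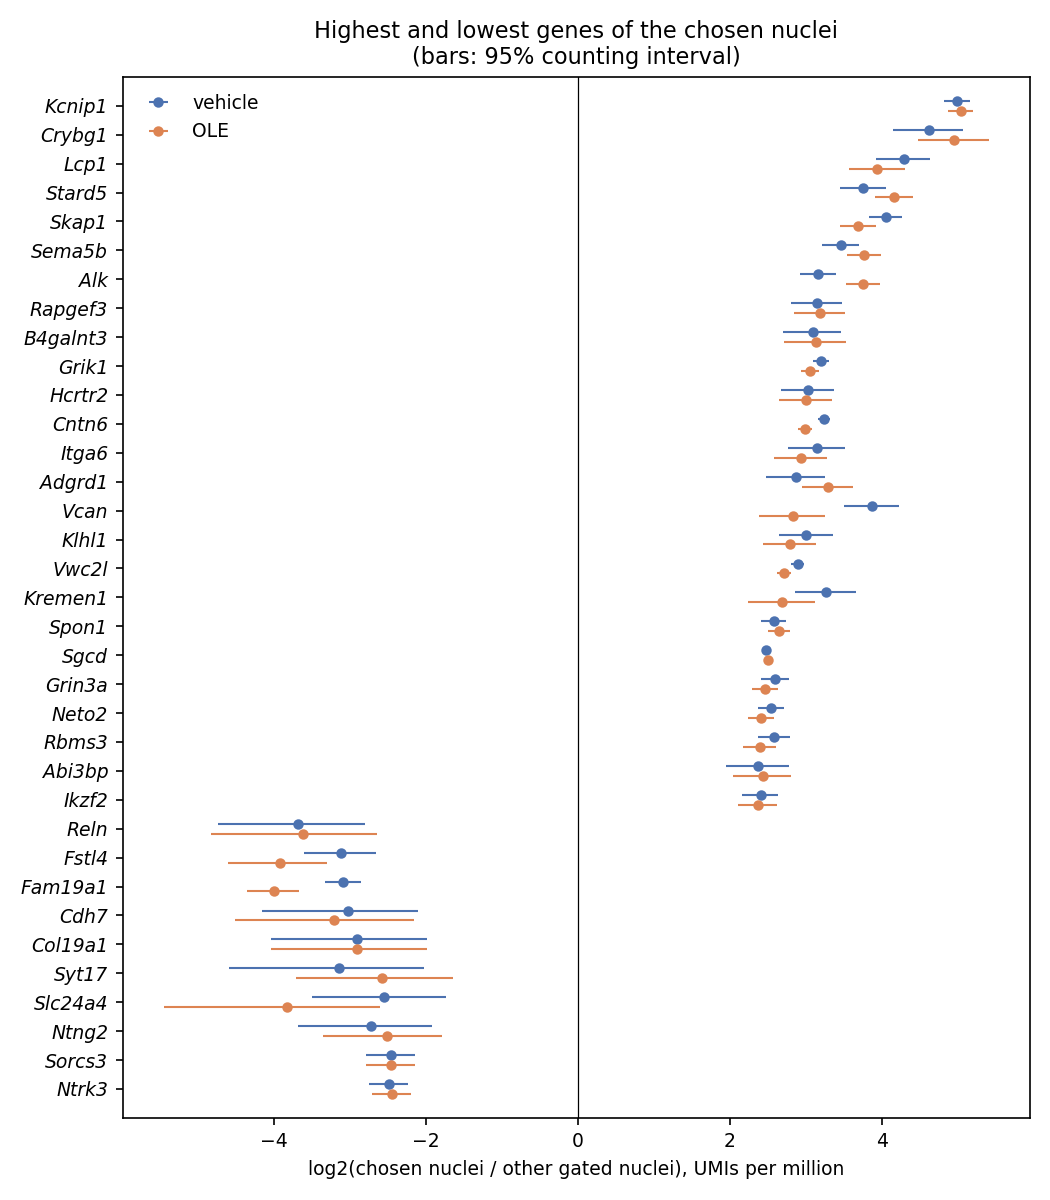
Log2 ratio of CPM in Sntb1 Hmga2 nuclei to those in the other gated nuclei, by library, for the most raised and the lowest genes outside the rule, with 95% counting intervals. The 2 libraries lie close together for most of these genes, from Kcnip1 at 4.99 and 5.04 to Reln at -3.68 and -3.62. The genes were ranked by the smaller ratio of the 2 libraries, so this closeness follows in part from the choice.

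Read against markers of cell classes, the nuclei were glutamatergic with a deep-layer profile, and no single layer list covered them. Slc17a7, which the gate required, stood at 206 CPM in vehicle and 215 in OLE, against 185 and 246. Slc17a6, the vesicular transporter more usual outside the cortex, was higher, at 35.6 and 55.8 against 18.6 and 24.3. It was not particular to the set, with 66.8 and 70.6 in nuclei chosen in the same way by Htr2c and Dpp4. Other sets chosen by gene pairs were below the Sntb1 Hmga2 nuclei in Slc17a6. Lower in the set were the broad cortical glutamatergic genes Camk2a, a synaptic kinase (-1.02 and -1.10), and Nrgn, a calmodulin-binding protein of dendrites (-0.96 and -0.91). Camk2a was nonetheless found in 45 of 48 vehicle and 48 of 54 OLE nuclei.

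All 3 measured genes of the near-projecting list were higher in both libraries. Tshz2 stood at 3187 CPM in vehicle and 2780 in OLE (877 and 892 in the other gated nuclei), Vwc2l at 1526 and 1192 (206 and 182), and Lypd1 at 70.2 and 74.4 (19.0 and 25.1). Lypd1 also stood at 72.5 and 47.9 in nuclei chosen in the same way by Otof and Smoc2. It was below the Sntb1 Hmga2 nuclei in the other sets chosen by gene pairs. The other 3 genes of the near-projecting list, Slc17a8, Trhr and Sla2, had too few UMIs to be counted. Several deep-layer transcription factors went the same way. Fezf2 was higher by 2.06 and 1.78 on the log2 scale, Bcl11b by 1.79 and 1.72, and Tle4 by 2.00 and 2.37. Sox5 was higher by 1.57 and 1.69, and Lmo3 by 2.10 and 1.87. Others did not, with Tbr1 at 16.2 and 21.9 CPM against 16.1 and 19.9, and Nr4a2 at 35.6 and 43.8 against 34.9 and 42.5. Pou3f1 was lower, at 6.48 and 3.28 against 9.78 and 12.2. Yet Vat1l, another layer 5 marker, had 9 UMIs in each library, and the layer 6 corticothalamic markers Syt6 and Ntsr1 had 3 and 6 UMIs and 1 and 0 UMIs. Foxp2 of the same list stood at 141 and 148 CPM against 102 and 86.9, and Rprm at 7.56 and 14.2 against 4.58 and 7.43. In the list of cortical transcription factors, 6 of 26 measured genes were higher and 3 were lower, against 3.93% and 4.05% of all measured genes.

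Markers of other classes were also present in some nuclei. The 14 GABAergic markers summed to 1966 CPM in vehicle and 1274 in OLE, against 316 and 438, but 2 genes made up most of this, Kcnip1 and Nxph1, while Dlx1 and Lhx6 had 0 UMIs and Slc32a1, the vesicular GABA transporter, 5 and 1. The 4 markers of oligodendrocyte precursors (Pdgfra, Vcan, Cspg4 and C1ql1) summed to 148 and 92.0 CPM, against 11.5 and 16.8. The 7 astrocyte markers summed to 1606 and 1475 against 681 and 777, most of it from Slc1a2 and Gpc5, with Aqp4 at 6 and 17 UMIs. The median nucleus held 0 UMIs of Vcan in both libraries.

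The precursor markers lay in few nuclei. A group of 13 nuclei (9 vehicle, 4 OLE) held 5 or more UMIs of the 4 markers, and 6 of these 9 and 1 of these 4 had no Sntb1 UMI at all. The group was not uniform, as 6 of the 9 and 2 of the 4 held Pdgfra. The others reached the limit through Vcan alone, and held 6 to 25 UMIs of Sntb1 and 33 to 65 of Vwc2l. Kcnh8 and Kcnip1 are also high in oligodendrocyte precursor nuclei of these libraries, which had 340 and 300 CPM of Kcnh8 and 309 and 444 of Kcnip1 over 59 nuclei. Without the 13 nuclei, the smaller of the Vcan differences went from 2.83 to 1.13 on the log2 scale. Vcan is 1 of the 4 markers that chose these nuclei, so its fall follows from the choice and is no finding. Without the same nuclei, the smaller difference of Kcnip1 was 5.02, that of Vwc2l 2.70, and that of Sgcd 2.39. The smaller differences of Fstl4 and Fam19a1, low genes of the set, went from -3.12 to -3.76 and from -3.09 to -3.82. This limit of 5 UMIs, and every split of the set given here, was chosen after values had been seen.

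A further 17 nuclei (6 vehicle, 11 OLE) had no Kcnip1, no Hmga2 and at most 1 UMI of Kcnh8. Their median for Sntb1 was 12.5 UMIs in vehicle and 5 in OLE, and some had 1 UMI each of Sntb1 and Kcnh8. Their median for Vwc2l was 4.5 UMIs in vehicle and 1 in OLE. The 71 nuclei with Kcnip1 and fewer than 5 precursor UMIs had medians of 30 and 21.5 UMIs of Vwc2l and 80 and 57.5 of Tshz2. The 13 nuclei with precursor markers had medians of 1 UMI of Vwc2l in vehicle and 21.5 in OLE. These groups differ in more than Kcnip1, so a link of the near-projecting genes to Kcnip1 alone was not tested.

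Hmga2 and Kcnh8, although both chose the nuclei, were for the most part in different nuclei. Of the 102, 22 had Hmga2 and at most 1 UMI of Kcnh8 (12 vehicle, 10 OLE), 43 had at least 2 UMIs of Kcnh8 and no Hmga2 (21 and 22), 10 had both (5 and 5), and 27 had neither (10 and 17). The groups had similar medians of depth, 17948 and 17094.5 UMIs for the Hmga2 nuclei and 15279 and 17906.5 for the Kcnh8 nuclei. A rule that adds 3 genes selects nuclei high in any of them, so the split itself is partly built in. Other genes were not used in the split.

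Between the Hmga2 nuclei and the Kcnh8 nuclei, 58 of 2309 measured genes (2.51%) were at least 2-fold higher in both libraries and 47 (2.04%) at least 2-fold lower. Npsr1, the receptor of neuropeptide S, stood at 225 CPM in vehicle Hmga2 nuclei and 1049 in OLE Hmga2 nuclei, and had 1 and 2 UMIs in all Kcnh8 nuclei. It was found in 63.6% of the 22 Hmga2 nuclei, with a highest value of 43.2 per 10000 UMIs. Ntng1, a netrin-G adhesion protein of axons, stood at 512 and 456 CPM against 43.3 and 41.6, which is 3.56 (2.81 to 4.41) and 3.45 (2.71 to 4.27) on the log2 scale. The sodium-activated potassium channel Kcnt2, at 979 and 684 against 157 and 30.1, the heparan sulfate sulfotransferase Hs6st3, at 3412 and 1941 against 580 and 211, and the transcription factors Mef2c and Meis2 were higher on the same side. Grik1 was higher there as well, at 1929 and 1870 against 528 and 315, and was found in all 22 Hmga2 nuclei.

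Other genes were higher in the Kcnh8 nuclei than in the Hmga2 nuclei. Sgcd stood at 7294 CPM in vehicle and 6828 in OLE Kcnh8 nuclei, against 655 and 213 in Hmga2 nuclei, a log2 difference of -3.48 (-3.70 to -3.26) and -5.00 (-5.48 to -4.57), and it was found in all 43 of these nuclei. Il1rapl2, a synaptic receptor of the interleukin-1 receptor family, stood at 2966 and 3215 against 58.9 and 142. The glycosyltransferase Galntl6, the teneurin Tenm3, the AMPA receptor partner Shisa6, the bone morphogenetic protein receptor Bmpr1b, Klhl1, Crybg1 and the transcription factors Sox6 and Rorb were higher on this side too. Vcan and Sox6 were among these genes, and 10 of the 13 nuclei with 5 or more precursor-marker UMIs were Kcnh8 nuclei (7 vehicle, 3 OLE). The part of those nuclei in the values was not tested. Not all genes of this side were particular to the Kcnh8 nuclei. In nuclei with neither gene, Galntl6 stood at 3653 CPM in vehicle and 3078 in OLE, against 1682 and 3664 in Kcnh8 nuclei. Rorb stood at 224 and 345 there against 328 and 433, while Sgcd was lower there, at 1873 and 1110.

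Some genes of the set were alike on both sides and others were not. Kcnip1 stood at 490 and 588 CPM in Hmga2 nuclei and 645 and 650 in Kcnh8 nuclei, a log2 difference of -0.40 (-0.71 to -0.08) and -0.14 (-0.47 to 0.17). Vwc2l stood at 1542 and 1475 against 1834 and 1385, Dcc at 4531 and 4495 against 4780 and 4233, and Neto2 at 335 and 390 against 330 and 363. Tshz2 was 0.61 and 0.41 higher in the Hmga2 nuclei, and Lypd1, the third measured near-projecting gene, 1.64 (0.69 to 2.66) and 0.89 (0.09 to 1.67) higher. Several of the most raised genes of the set were at least 2-fold lower in the Hmga2 nuclei in both libraries, among them, beside Sgcd, Crybg1 and Klhl1, also Adgrd1 (-1.82 and -1.98), Rbms3 (-1.72 and -1.97), B4galnt3 (-1.69 and -4.26), Ikzf2 (-1.23 and -1.69), Skap1 (-1.23 and -1.27) and Cntn6 (-1.03 and -1.67).

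**Figure D3:**
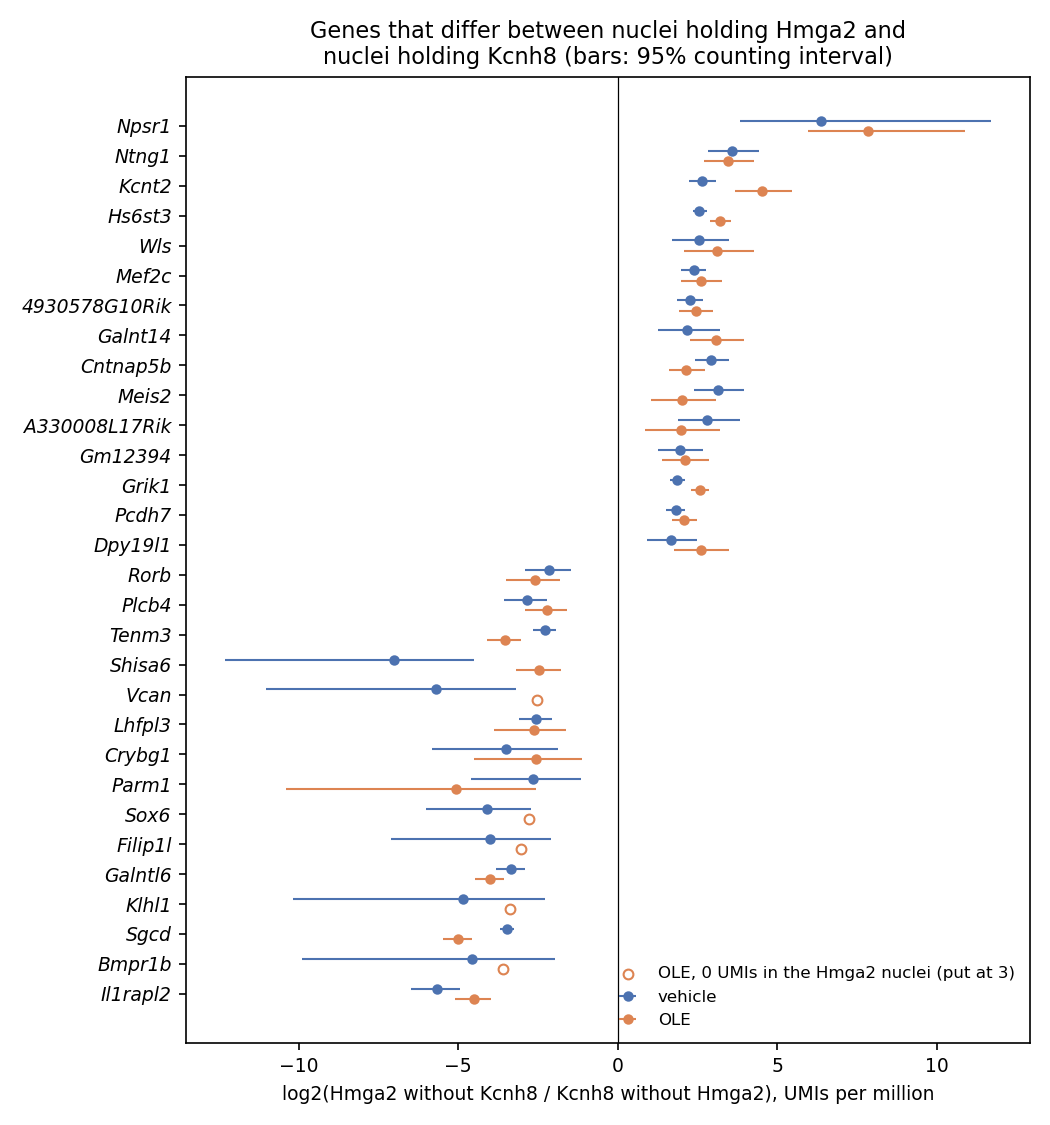
Log2 ratio of CPM in nuclei with Hmga2 and at most 1 UMI of Kcnh8 (22 nuclei) to those in nuclei with Kcnh8 and no Hmga2 (43 nuclei), by library, with 95% counting intervals. Open circles mark genes with 0 UMIs in the Hmga2 nuclei, placed at a floor of 3 counts for that group and library, so the true ratio lies at that value or further left. Npsr1 lies furthest to the right, at 6.37 and 7.82, and Sgcd lies on the left at -3.48 and -5.00.

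Sets chosen in the same way by other gene pairs show where these nuclei stand among glutamatergic nuclei. Across the levels of 3253 genes, Spearman's rho with the set was 0.873 for the other gated nuclei as a whole, 0.851 for nuclei high in Htr2c and Dpp4, 0.842 for nuclei high in Stac and Vat1l, 0.837 for nuclei high in Foxp2 and Syt6, 0.834 for Cobll1 and Thsd7b, 0.797 for Rorb and Rspo1, and 0.790 for Otof and Smoc2. These are correlations across genes, which are not independent, and the sets share libraries. The deeper-layer pairs came first and the superficial pair last. Nuclei in 2 sets were counted here with the Sntb1 Hmga2 nuclei, such as 10 of the 240 nuclei high in Htr2c and Dpp4.

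The 25 most raised genes were compared with the 3 nearest sets. All 25 were at least 2-fold higher than in the nuclei high in Htr2c and Dpp4 and than in those high in Stac and Vat1l. Against those high in Foxp2 and Syt6, 24 were at least 2-fold higher. The 25 had been picked by their ratio to the other gated nuclei, which hold these sets. The counts therefore follow largely from that choice, and no share over all genes is given beside them. The exception was Hcrtr2, which stood at 43.7 and 54.9 CPM in the Foxp2 Syt6 nuclei and differed by 1.00 (0.58 to 1.41) and 0.69 (0.27 to 1.10). Near-projecting genes were shared in part. Tshz2 stood at 2708 and 2717 CPM in the Htr2c Dpp4 nuclei and differed from the set by 0.23 (0.17 to 0.30) and 0.03 (-0.04 to 0.10), whereas Vwc2l stood at 286 and 158 there and differed by 2.41 and 2.92. Bcl11b differed from the Stac Vat1l nuclei by 0.36 and 0.17 and from the Htr2c Dpp4 nuclei by 2.87 and 3.12. Fezf2 differed from the Stac Vat1l nuclei by 0.67 (0.23 to 1.11) and 0.33 (-0.15 to 0.80). From the Foxp2 Syt6 nuclei Fezf2 differed by 0.96 and 0.68, and from the Htr2c Dpp4 nuclei by 2.44 and 2.51. Tle4 differed from the Foxp2 Syt6 nuclei by 0.21 and 0.57 and from the Stac Vat1l nuclei by 3.43 and 3.81.

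OLE was compared with vehicle within the set, the contrast the treatment addresses. The rule genes were at similar levels, with log2(OLE/vehicle) of 0.21 (0.02 to 0.40) for Sntb1, 0.15 (-0.10 to 0.39) for Kcnh8 and -0.47 for Hmga2, the last with an interval that includes 0. Among 3253 genes with 100 or more UMIs in the set, 14 (0.430%) were at least 2-fold higher in OLE and 15 (0.461%) at least 2-fold lower. The counting interval lay above 0 for 306 genes and below 0 for 308. None of this has a replicate check, so a difference between the 2 pools, the 2 library preparations and the treatment cannot be told apart.

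Npsr1 (chr9:24097996-24316398, plus strand) was the most raised gene with at least 200 UMIs. It stood at 68.0 CPM in vehicle (63 UMIs in 7 nuclei) and 261 in OLE (238 UMIs in 16 nuclei), a log2 ratio of 1.94 (1.53 to 2.36), while in the other gated nuclei it went the other way, from 45.9 to 32.7 (-0.49). Few nuclei carried it. In vehicle 85.7% of its UMIs lay in 3 nuclei and in OLE 58.4%, and within the Hmga2 nuclei alone it went from 61 to 207 UMIs (2.22, 1.81 to 2.66). With the fullest nucleus of each library left out, the ratio was 2.04.

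Adamtsl1, a secreted matrix protein, stood at 126 CPM in vehicle and 299 in OLE (1.24, 0.92 to 1.57), against 0.13 in the other gated nuclei. It was higher in OLE among Kcnh8 nuclei, from 31 to 164 UMIs. The guidance ligand Slit2, named from the axon guidance list with 31 and 137 UMIs, had the largest ratio of all, 2.16 (1.59 to 2.78), with 64.5% of its vehicle UMIs and 56.9% of its OLE UMIs in 3 nuclei. Caln1, a calcium-binding protein, differed by 0.84 in the set and by -0.04 in the other gated nuclei. The UMIs of Caln1 were spread more widely, over 35 vehicle and 42 OLE nuclei, with 25.4% and 25.1% of them in 3 nuclei.

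Other raised genes were raised in the other gated nuclei as well. The heat shock protein Hspa8 stood at 61.6 CPM in vehicle and 147 in OLE (1.25, 0.80 to 1.73), and its ratio in the other gated nuclei was 1.05. Apoe, the main lipoprotein component made by glia, differed by 0.91 (0.51 to 1.33) in the set and 1.24 in the other gated nuclei, and Itm2b, a membrane protein of familial dementias, by 0.87 and 0.85. Ly6h differed by 0.96 and 0.40, and Slc22a17 by 0.92 and 0.58. Apoe was lower in OLE when the score limit was 2 (-0.28), when the gate was 10000 UMIs (-0.29) and when Sntb1 was left out of the rule (-0.33). Ptgds, a prostaglandin synthase made mainly by glia and leptomeninges, stood at 68.0 and 208 (1.61), but a single OLE nucleus held 56.3% of its UMIs, and without the fullest nucleus of each library the ratio was 0.56.

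Genes lower in OLE included several of those that divide the set. Meis2 stood at 199 CPM in vehicle and 62.4 in OLE, a log2 ratio of -1.67 (-2.13 to -1.24), against -0.17 in the other gated nuclei, and within Hmga2 nuclei it went from 109 to 26 UMIs. Kcnt2 stood at 494 and 233 (-1.08, -1.32 to -0.84), with -0.52 among Hmga2 nuclei and -2.39 among Kcnh8 nuclei. Hmga2 nuclei were 25.0% of the vehicle set and 18.5% of the OLE set, and nuclei with neither gene 20.8% and 31.5%, and the part of these shares in the ratios was not tested.

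Nxph1, a secreted ligand of neurexins, stood at 908 CPM in vehicle and 351 in OLE (-1.37, -1.56 to -1.18), against 0.08 in the other gated nuclei. Its ratio was -0.24 (-0.52 to 0.05) among Hmga2 nuclei and -1.56 (-1.89 to -1.24) among Kcnh8 nuclei. The heparan sulfate proteoglycan Gpc6 differed by -1.43 (-1.82 to -1.06), from 98 to 20 UMIs in Hmga2 nuclei and from 60 to 19 in Kcnh8 nuclei, so it was lower on both sides. Cntnap5a and the calcium channel subunit Cacna2d3 differed by -1.65 and -1.54, but a single vehicle nucleus held 45.9% and 48.7% of their UMIs, and without the fullest nuclei the ratios were -1.01 and -0.86. Zfp804b differed by -1.48, and by -0.85 without the nuclei with precursor markers. Ptprk differed by -1.19, and by 0.057 when Hmga2 was left out of the rule. With Hmga2 so left out, Meis2 differed by -0.46, and Cntnap5a and Cacna2d3 by -0.18 each.

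**Figure D4:**
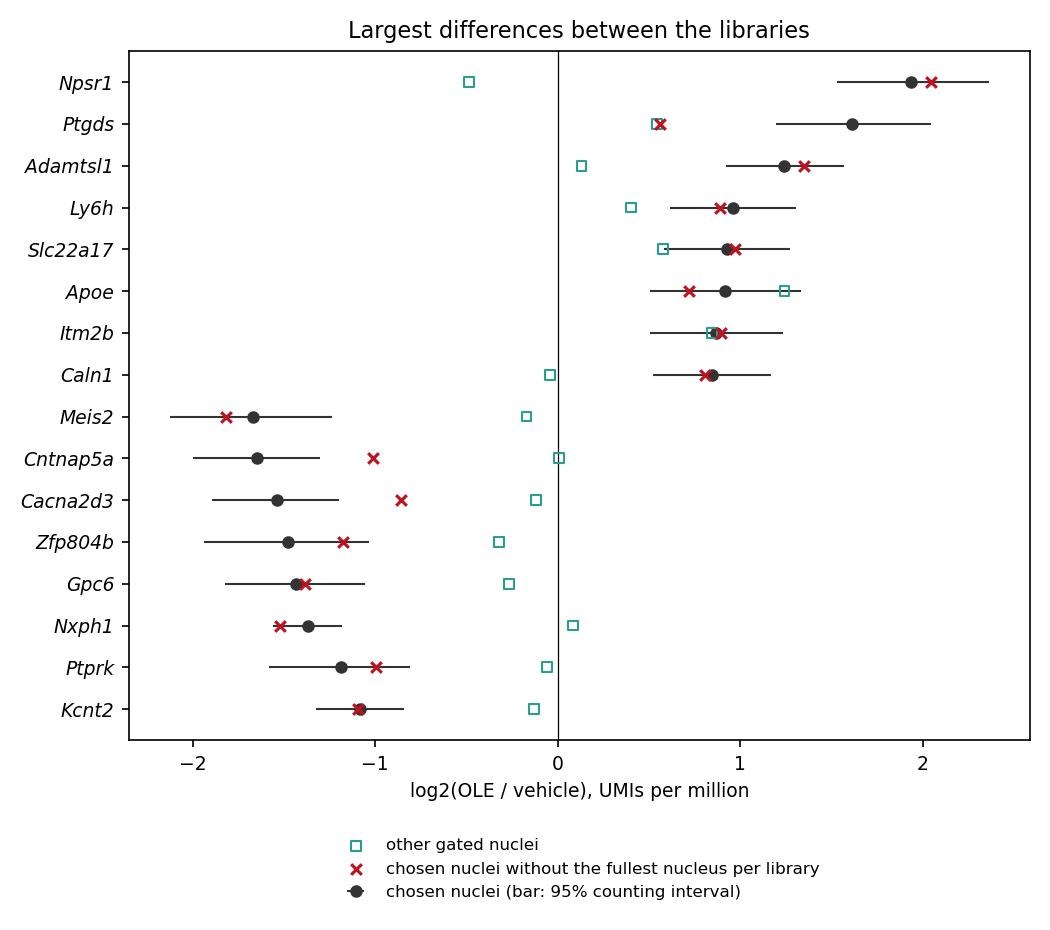
Log2(OLE/vehicle) of CPM for the 8 highest and 8 lowest genes with at least 200 UMIs in the Sntb1 Hmga2 nuclei (filled circles, bars for 95% counting intervals), for the same nuclei without the fullest nucleus per library and gene (crosses), and for the other gated nuclei (open squares). Npsr1 lies at 1.94 in the set and -0.49 in the other gated nuclei, Apoe and Itm2b are raised in both, and the crosses of Ptgds (0.56), Cntnap5a (-1.01) and Cacna2d3 (-0.86) lie outside the intervals.

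By gene list, the largest difference was in protein folding of the endoplasmic reticulum. There 6 of 7 measured genes had a ratio above 0, with a median log2(OLE/vehicle) of 0.52, against 1678 of 3253 genes above 0 and a median of 0.01 over all genes, and 0.50 for the same genes in the other gated nuclei. The chaperone Hsp90b1 differed by 0.96 (0.51 to 1.43) and Calr by 0.68 (0.21 to 1.15). Genes of amyloid precursor processing were above 0 in 8 of 10, with a median of 0.28 (0.17 in the other gated nuclei), and App itself went from 631 to 752 CPM (0.25, 0.09 to 0.42). Reads of the APP transgene, where they align to App, were not told apart. Cytosolic chaperones had a median of 0.22 and 5 of 8 genes above 0, and synaptic vesicle genes 0.15 and 14 of 18.

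Lists of surface proteins had medians below 0. Classical cadherins had a median of -0.30 with 3 of 9 genes above 0, which was 0.13 without Kcnh8 in the rule and 0.061 without Hmga2, and synaptic adhesion genes -0.17 with 9 of 24. The medians of the same genes in the other gated nuclei were -0.14 and -0.11. KCNH channels had a median of -0.18, with 2 of 4 genes above 0. Medians of other channel and receptor lists were 0.09 for Kv4 channels and partners, -0.05 for other potassium channels, 0.01 for ionotropic glutamate receptors and -0.06 for GABA receptors. Lists with medians above or below 0 in the set had medians of the same sign in the other gated nuclei in the folding, amyloid, vesicle, chaperone, cadherin and adhesion lists.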

How the data were processed

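The members and gene lists were chosen with earlier results of these data known. From frozen tissue the authors made 10x libraries of nuclei, and they counted UMIs with Cell Ranger (3.0.1 in the submitters' notes) on the mm10 pre-mRNA reference, introns included. They deposited whole-number UMI counts for 31053 genes per nucleus, without normalization. Their methods name doublet removal, and whether it preceded deposit is not given in the sources used here. Doublets were scored with Scrublet (scanpy 1.11.5, expected rate 5%) and not removed.

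UMIs were summed per library and set and scaled per 1000000 (CPM). Ratios have exact conditional binomial 95% intervals, levels exact Poisson intervals, and a count of 0 was set to 3 per library and set. With 1 library per treatment no test was run. Named genes were the 25 highest and 10 lowest ratios to the other gated nuclei, the 8 highest and 8 lowest OLE ratios among genes with at least 200 UMIs, the 3 rule genes, and up to 5 genes per list. Genes named for the Hmga2 and Kcnh8 nuclei were chosen after their values were seen. Coordinates are from GENCODE M21 (GRCm38), which matched 30934 gene IDs. Scripts were tested on simulated counts.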

Additional observations from a re-analysis of the deposited data

How the results depend on the processing

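Of 532 values for named genes against the other gated nuclei over 14 alternatives, 120 moved beyond the counting interval and 0 changed sign. Of 240 values for named genes in OLE against vehicle, 63 moved and 5 changed sign. These were Apoe at -0.28 with a score limit of 2, -0.29 with a gate of 10000 UMIs and -0.33 without Sntb1 in the rule, Ptgds at -0.22 without Sntb1, and Ptprk at 0.057 without Hmga2. Leaving out a gene of the rule or the nuclei with precursor markers was chosen after seeing the data.

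With a score limit of 1 the set was 3.85% of gated vehicle nuclei and 4.47% of OLE nuclei (94 nuclei), 22 genes were at least 2-fold higher in OLE, and the list medians were -0.14 for Kv4 channels, 0.13 for metabotropic glutamate receptors, -0.0091 for cadherins, -0.027 for synaptic adhesion and -0.35 for mitochondrially encoded genes. Without Sntb1 the medians were -0.25 for amine receptors and -0.26 for mitochondrially encoded genes. Without Kcnh8 the OLE share was 3.61%, 29 genes were higher in OLE, and medians were -0.091 for Kv4 channels, 0.16 for metabotropic receptors, -0.38 for mitochondrially encoded genes and 0.13 for cadherins, which changed sign. Without Hmga2 the OLE share was 4.28% (90 nuclei), and medians were -0.13, 0.21, -0.73 and 0.061 for the same lists. Genes at least 2-fold lower in OLE numbered 26 with a gate of 10000 UMIs and 38 with no Gad1 or Gad2 UMI allowed, where the mitochondrially encoded median was -0.59. With a minimum of 200 UMIs a gene, 90 genes were higher in the set, 3 higher and 9 lower in OLE, and the KCNH median was 0.15. With no minimum, 891 genes were higher and 456 lower in the set, while the count of genes at least 2-fold higher in OLE members was 1742 and of those lower 692. The KCNH median was 0.36 without the nuclei with precursor markers. The cause of these moves was not tested.

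No paired analysis was possible because each treatment has 1 library, and for the same reason none was left out. Genes with under 100 UMIs in the set, measured or, for low genes, predicted from the other gated nuclei, were not counted.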
